A study of Mus musculus with 7 samples.

Results

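Interleukin-7 (IL-7), thymic stromal lymphopoietin (TSLP) and stem cell factor (SCF, the product of Kitl) are cytokines that stromal cells present to blood-cell precursors. The axis described here comprises these 3 ligand genes, Il7, Tslp and Kitl, and their receptor genes Il7r and Kit. Its members were all probe sets that the array's annotation assigns to exactly 1 of these 5 symbols. The 5 genes, of 18193 with such a probe set, had 11 probe sets among the 45101 of the array, 2 for Il7, 1 for Tslp, 4 for Kitl, 2 for Il7r and 2 for Kit.

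IL-7 binds the IL-7 receptor alpha chain, encoded by Il7r, paired with the common gamma chain, and it supports the survival and growth of B-cell and T-cell precursors. TSLP uses the same Il7r chain with a partner of its own, encoded by Crlf2. SCF is made as a membrane-bound or shed protein and activates KIT, a receptor tyrosine kinase carried by haematopoietic stem and progenitor cells and mast cells. In bone marrow, perivascular reticular cells are a known source of IL-7 and SCF, and endothelial cells of SCF.

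Gene expression was measured on 7 Affymetrix Mouse 430 2.0 arrays hybridised with amplified RNA of flow-sorted bone marrow cells from wild-type C57Bl/6J mice, described as young adults aged 6 to 12 weeks. On 4 arrays the cells were CD45-Lin-CD54+CD31-BP1+ and labelled stromal. On 3 arrays they were CD45-Lin-CD54-CD31+ and labelled endothelial. Each sort yielded 1800 to 10000 cells, and the labels do not say whether the arrays of a population came from separate mice, so p-values measure only the spread between these samples.

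Values are the deposited log2 expression values, in which a step of 1 is a doubling. Differences are given as CD54+CD31-BP1+ minus CD54-CD31+. A probe set entered the limma test when it exceeded the array's 40th percentile (5.48 to 5.79) on 3 arrays or more, which serves here as a floor for dim probe sets. It was called at an adjusted p under 0.05 and a difference of at least 1. No fold is given where a population's mean lay below that floor, and the log2 difference is then that of the measured values and no exact size. Fewer cells of a type and less RNA per cell cannot be told apart in such sorted bulk samples.

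The genes of the sorting antigens followed the gates, except CD45. Icam1 (CD54) had a mean of 10.50 ± 0.35 (SD, n = 4) on CD54+CD31-BP1+ arrays and 5.31 ± 0.49 (SD, n = 3) on CD54-CD31+ arrays. Enpep (BP1) had means of 12.00 and 5.08, and Pecam1 (CD31) of 4.93 and 8.41. Ptprc, which encodes CD45, was at 6.45 ± 1.1 and 9.64 ± 1.18, 9.18-fold higher on CD54-CD31+ arrays (limma adjusted p = 0.00591). Of all 13995 genes tested, 30.5% were called toward CD54+CD31-BP1+ and 16.0% toward CD54-CD31+. All 7 reticular stroma markers listed were called higher on CD54+CD31-BP1+ arrays, among them Lepr at 13.12 against 4.45 and Cxcl12 at 14.73 against 6.84. Of 8 endothelial markers, 5 were tested and 2, Kdr and Plvap, were called higher on CD54-CD31+ arrays. Cdh5, which encodes VE-cadherin, read 5.67, 5.19 and 5.30 on the CD54-CD31+ arrays, and Emcn read 4.13, 4.11 and 4.19, below the 40th percentile on each, as was Tek. All 6 megakaryocyte and platelet markers matched were called higher there, Pf4 at 14.31 against 8.16. The 2 populations are therefore named by their gates. Spiked hybridisation controls averaged 9.51 to 9.75 on 5 arrays and 11.33 and 11.37 on CD54-CD31+ replicates 2 and 3. The Gapdh 3′ minus 5′ control difference, a sign of transcript truncation, was 3.07 to 3.51 on CD54+CD31-BP1+ and 2.37 to 3.50 on CD54-CD31+ arrays.

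Promoter sequences from RefSeq (GRCm38.p6) were matched by symbol for 3 of the 5 members, in 4 windows, with no entry for Il7 or Tslp. They are shown for Kitl, the ligand gene with an entry, and for both receptor genes, as the 250 bases before each gene's start, with capitals marking motif matches.
Kitl, chr10:100015571-100015820, plus strand: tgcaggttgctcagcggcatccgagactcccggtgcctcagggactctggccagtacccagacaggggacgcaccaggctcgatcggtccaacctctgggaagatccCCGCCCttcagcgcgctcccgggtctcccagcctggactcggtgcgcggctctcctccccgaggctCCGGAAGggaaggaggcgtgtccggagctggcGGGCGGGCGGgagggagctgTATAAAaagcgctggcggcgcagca
Kit, chr5:75574737-75574986, plus strand: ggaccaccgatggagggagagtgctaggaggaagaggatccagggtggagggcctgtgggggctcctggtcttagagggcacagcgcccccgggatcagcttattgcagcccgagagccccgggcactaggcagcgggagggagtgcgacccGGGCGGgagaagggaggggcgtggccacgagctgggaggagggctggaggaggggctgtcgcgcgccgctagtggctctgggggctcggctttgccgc
Il7r, chr15:9529877-9530126, minus strand: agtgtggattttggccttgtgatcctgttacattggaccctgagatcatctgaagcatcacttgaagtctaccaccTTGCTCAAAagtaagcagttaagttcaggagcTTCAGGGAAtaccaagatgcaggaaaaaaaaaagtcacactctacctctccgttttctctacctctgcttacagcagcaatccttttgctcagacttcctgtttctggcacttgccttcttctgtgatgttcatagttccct
The Kitl and Kit windows were rich in G and C, at 69.2% and 70.8% (percentiles 89.9 and 91.9 of 32851 windows), with 23 and 17 CpG dinucleotides. The Il7r window had 44.0% G and C (percentile 21.6) and 1 CpG (percentile 13.3).

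The motifs, each with its share of all windows, were the EBF palindrome (0.779%), TTCNNNGAA for STAT (7.02%), TAAACA for FOX (12.0%), AGATAA for GATA factors (9.99%), CCGGAAG for ETS (6.91%), TTGCNNNAA for C/EBP (8.29%), CACGTG for the E-box (6.02%), GGGCGG for SP/KLF (32.7%) and TATAAA for the TATA box (12.4%), on both strands. The Kitl window held 3 SP/KLF matches, 143 (minus strand), 45 and 41 bases before the start, of which the last 2 overlap, with an ETS match 77 and a TATA box match 25 bases before it. The Kit window held 1 SP/KLF match, 98 bases before the start. The Il7r window held 1 STAT match and 1 C/EBP match, 142 and 174 bases before the start. A match is only a run of letters, and nothing in these arrays measured binding to it.

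**Figure D1:**
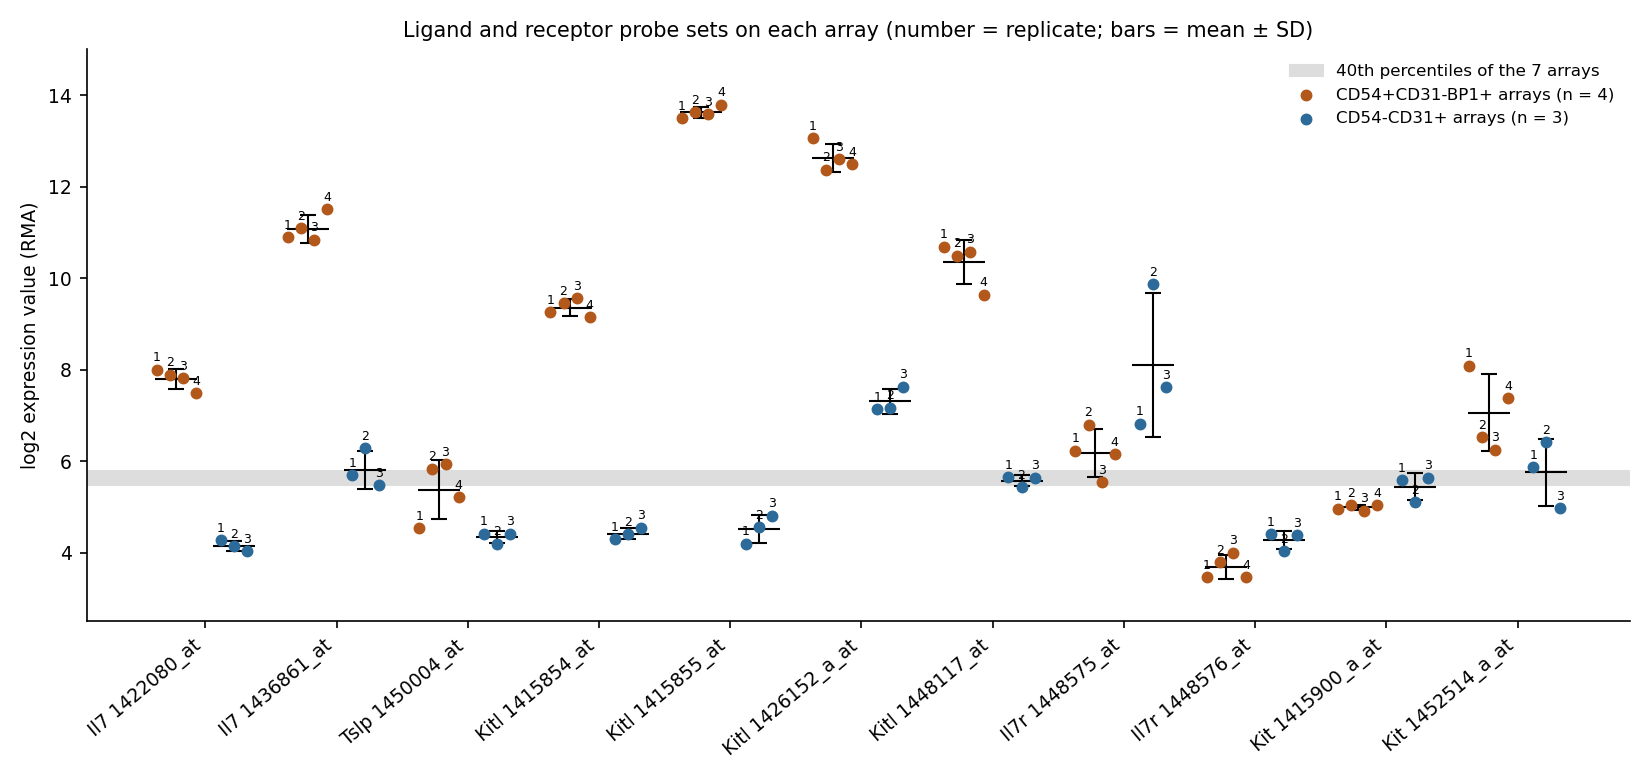
The vertical axis gives the deposited log2 value of each of the 11 probe sets on the horizontal axis, with 1 point per array, the replicate number above it, and bars for mean ± SD; orange marks the 4 CD54+CD31-BP1+ arrays, blue the 3 CD54-CD31+ arrays, and the grey band the arrays' 40th percentiles (5.48 to 5.79). The Il7 and Kitl points of the populations lie far apart on all 6 probe sets, whereas those of Kit 1452514_a_at overlap.

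All 6 probe sets of Il7 and Kitl were called higher on CD54+CD31-BP1+ arrays, and 1 probe set of Il7r was called higher on CD54-CD31+ arrays. Kit was called in neither direction, and the single Tslp probe set was too dim to be tested. Of the 11 probe sets, 8 were tested. Over all 29439 probe sets tested, 40.6% were called, 26.0% toward CD54+CD31-BP1+ and 14.6% toward CD54-CD31+, so that a call of either kind was common in this comparison. Without overlap between the arrays, CD54+CD31-BP1+ lay above on 7 of the 11 (20.7% of all 45037 non-control probe sets) and CD54-CD31+ on 3. The populations were thus separate on 10 (60.7% of all). Over the non-control probe sets, 27335 were separate, and only 9332 of these had CD54+CD31-BP1+ above. Separation with CD54-CD31+ above was therefore the more common kind. The 6 Il7 and Kitl differences, 3.65 to 9.10, lay above the 95% quantile of all differences tested, 3.17, and the median was 0.07. Those with a CD54-CD31+ mean below the floor have no exact size. They passed the filter only through the CD54+CD31-BP1+ arrays, so their place in this range is a description.

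Il7 encodes the cytokine itself. On probe set 1436861_at, CD54+CD31-BP1+ arrays read 10.89, 11.09, 10.84 and 11.51 and CD54-CD31+ arrays 5.69, 6.28 and 5.47. Every CD54+CD31-BP1+ array thus lay more than 4 log2 steps above every CD54-CD31+ array. The means were 11.08 ± 0.30 (SD, n = 4) and 5.81 ± 0.42 (SD, n = 3), a difference of 5.27 (SE 0.26, 95% interval 4.66 to 5.88) or 38.5-fold, with a limma adjusted p of 2.62e-06. It ranked 365 of 29439 toward CD54+CD31-BP1+. CD54-CD31+ replicate 1 lay barely above its array's 40th percentile (5.68) and replicate 3 below its own (5.79). The fold is therefore no exact size either.

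The second Il7 probe set, 1422080_at, read 8.0, 7.89, 7.82 and 7.48 against 4.27, 4.14 and 4.04. The groups were again fully separate, and the CD54-CD31+ values were below the 40th percentile on all 3 arrays. The difference was 3.65 (SE 0.19, 95% interval 3.21 to 4.08, limma adjusted p = 2.98e-06). The replicates did not keep their order between the probe sets: CD54+CD31-BP1+ replicate 4 was the highest of its group on 1436861_at and the lowest on 1422080_at.

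Kitl encodes SCF. Its probe set 1415855_at read 13.50, 13.63, 13.58 and 13.79 on CD54+CD31-BP1+ arrays and 4.20, 4.56 and 4.81 on CD54-CD31+ arrays. The first values are near the top of the range of these arrays, whose maxima were 14.68 to 14.82, and the second lie below the 40th percentile on each array. The measured values differed by 9.10 (SE 0.20, 95% interval 8.64 to 9.56, limma adjusted p = 2.24e-07).

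On Kitl probe set 1426152_a_at the values were 13.06, 12.37, 12.60 and 12.49 against 7.13, 7.17 and 7.63. It was the only Kitl probe set above the 40th percentile on all 3 CD54-CD31+ arrays. The means of 12.63 ± 0.30 (SD, n = 4) and 7.31 ± 0.28 (SD, n = 3) differed by 5.32 (SE 0.23, 95% interval 4.78 to 5.85), or 39.9-fold, with a limma adjusted p of 1.34e-06.

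The other two Kitl probe sets separated the populations in the same direction, with the CD54-CD31+ arrays below the 40th percentile. Probe set 1415854_at read 9.26, 9.45, 9.56 and 9.14 against 4.30, 4.40 and 4.55, a difference of 4.93 (SE 0.18, limma adjusted p = 6.29e-07). Probe set 1448117_at read 10.69, 10.49, 10.58 and 9.64 against 5.65, 5.43 and 5.64, a difference of 4.78 (SE 0.27, limma adjusted p = 5.28e-06). CD54+CD31-BP1+ replicate 4 was the lowest of its group on both, and the highest on 1415855_at. All 4 Kitl probe sets thus differed in the same direction, and their sizes are not compared, since 3 of them were below the floor on every CD54-CD31+ array.

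Tslp encodes the epithelial and stromal cytokine TSLP. Its probe set 1450004_at read 4.53, 5.84, 5.93 and 5.22 on CD54+CD31-BP1+ arrays and 4.42, 4.20 and 4.42 on CD54-CD31+ arrays. The groups did not overlap, but replicate 1 of CD54+CD31-BP1+ lay only just above the CD54-CD31+ arrays. Only replicates 2 and 3 of CD54+CD31-BP1+ were above their 40th percentile, so that the probe set did not enter the test. The means were 5.38 ± 0.65 (SD, n = 4) and 4.35 ± 0.13 (SD, n = 3), a difference of 1.03. With no filter on dim probe sets, limma gave it an adjusted p of 0.0314.

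**Figure D2:**
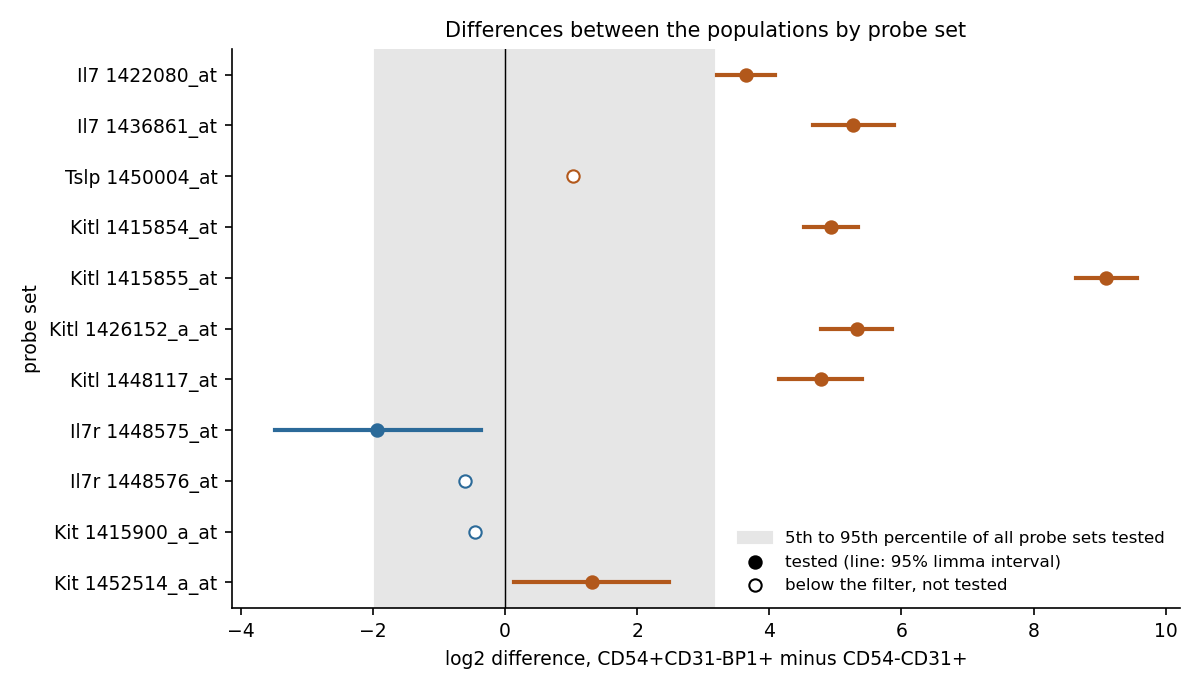
The horizontal axis gives the log2 difference, CD54+CD31-BP1+ minus CD54-CD31+, for each probe set on the vertical axis; filled points were tested and carry their 95% limma interval, open points were below the filter, and grey marks the 5% to 95% quantiles of all probe sets tested (-1.96 to 3.17). The 6 Il7 and Kitl probe sets lie right of the grey band, from 3.65 to 9.10, and the Tslp and receptor points lie inside it.

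Il7r, the receptor chain shared by IL-7 and TSLP, differed the other way. Probe set 1448575_at read 6.23, 6.80, 5.54 and 6.15 on CD54+CD31-BP1+ arrays and 6.82, 9.87 and 7.62 on CD54-CD31+ arrays. The groups met, since the highest CD54+CD31-BP1+ array was at 6.80 and the lowest CD54-CD31+ array at 6.82. Replicate 2 of CD54-CD31+ stood above all others. The means were 6.18 ± 0.52 (SD, n = 4) and 8.10 ± 1.58 (SD, n = 3), 3.8-fold higher on CD54-CD31+ arrays, with a difference of -1.93 (SE 0.67, 95% interval -3.48 to -0.37, limma adjusted p = 0.0375). That SD of 1.58 was at percentile 96.9 of all probe sets tested on those arrays. The call was lost without CD54+CD31-BP1+ replicate 1 (limma adjusted p = 0.0731), 3 (0.0882) or 4 (0.0745), or CD54-CD31+ replicate 3 (0.0503), and without CD54-CD31+ replicate 1 or 2 the difference was -2.57 (adjusted p = 0.016) or -1.04 (adjusted p = 0.0487). On the arrays of lower hybridisation-control level, which leave CD54-CD31+ replicate 1 alone against the 4 others and assume that it varies like them, the difference was -0.65 (adjusted p = 0.263).

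The second Il7r probe set, 1448576_at, read 3.47, 3.79, 4.0 and 3.46 against 4.40, 4.04 and 4.39. All 7 values were below the 40th percentile, and it was not tested. The CD54-CD31+ arrays lay above without overlap, by 0.60 in the mean, the direction of most separate probe sets on these arrays. The 40th percentiles were also higher on CD54-CD31+ arrays, at 5.68 to 5.79 against 5.48 to 5.52.

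Kit encodes the SCF receptor. Probe set 1452514_a_at read 8.09, 6.52, 6.25 and 7.37 on CD54+CD31-BP1+ arrays and 5.87, 6.42 and 4.97 on CD54-CD31+ arrays. The groups overlapped, and CD54+CD31-BP1+ replicates 1 and 4 were above all other arrays. The means were 7.06 ± 0.84 (SD, n = 4) and 5.75 ± 0.73 (SD, n = 3), 2.48-fold apart. The difference of 1.31 (SE 0.51, 95% interval 0.13 to 2.48) did not pass the threshold (limma adjusted p = 0.0543). It passed without CD54+CD31-BP1+ replicate 3 (difference 1.58, adjusted p = 0.0369), without CD54-CD31+ replicate 2 (1.64, adjusted p = 0.034) and after cyclic loess (1.45, adjusted p = 0.0477).

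The second Kit probe set, 1415900_a_at, pointed the other way at low values. It read 4.96, 5.04, 4.92 and 5.04 against 5.58, 5.11 and 5.64, all below the 40th percentile, which was itself higher on CD54-CD31+ arrays. It was not tested. With both probe sets averaged, the Kit difference was 0.43 (limma adjusted p = 0.159).

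Marker lists of blood cells, among them types known to carry these receptors, were read on the same arrays, each as the mean log2 value of its matched genes. Of all 13995 genes tested, 16.0% were called toward CD54-CD31+. The B-cell precursor list, to which Il7r-bearing cells belong, was at 6.22, 6.72, 5.80 and 5.90 on CD54+CD31-BP1+ arrays and 7.35, 9.39 and 7.26 on CD54-CD31+ arrays, with 4 of 6 tested genes called toward CD54-CD31+. Array by array, the highest value of Il7r 1448575_at and of this list in each population fell on replicate 2, and the lowest CD54+CD31-BP1+ value of both on replicate 3. The lowest CD54-CD31+ value fell on replicate 1 for Il7r and on replicate 3 for the list. The mast cell and basophil list and Ptprc had their highest and lowest values in each population on the same arrays as the B-cell precursor list. The match was thus not particular to B-cell precursors. On the CD54-CD31+ arrays Cd79b, a B-cell receptor chain gene, read 7.97, 11.44 and 9.46. Vpreb1, of the surrogate light chain, read 9.13, 12.18 and 6.92, overlapped between the populations and was not called (limma adjusted p = 0.117). Rag1, of antigen receptor recombination, read 5.29, 8.76 and 6.38 there, was below the floor on replicate 1 and on all 4 CD54+CD31-BP1+ arrays, and was not tested. The T cell and innate lymphoid list was at 5.80 to 5.95 and at 6.31 to 7.12, with 0 of 3 tested genes called by limma. Their part in the Il7r difference was not tested.

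The stem and progenitor, mast cell and basophil, and erythroid lists, of cell types with KIT-bearing members, lay higher on the CD54-CD31+ arrays. That was opposite to Kit 1452514_a_at. The stem and progenitor list was at 6.60 to 7.21 and 7.61 to 8.52, with 3 of 6 tested genes called toward CD54-CD31+. The mast cell and basophil list was at 4.97 to 5.72 and 6.42 to 7.90, with 3 of 6 called that way. The erythroid list was at 6.08 to 7.63 and 7.96 to 8.99 (3 of 5). The neutrophil precursor list overlapped between the populations, at 7.75 to 9.94 and 8.85 to 12.32 (3 of 7). The megakaryocyte and platelet list was at 6.78, 6.14, 5.93 and 8.92 against 14.17, 14.01 and 14.16. Within the CD54+CD31-BP1+ population, replicate 1 was highest on the stem and progenitor (7.21), erythroid (7.63) and neutrophil precursor (9.94) lists. On the mast cell and basophil list it was replicate 2 (5.72). Of CD54+CD31-BP1+ replicates 1 and 4, highest for Kit, only replicate 4 had the highest value of its population for all 6 platelet genes. Replicate 1 was near it for Pf4, the platelet factor 4 gene (9.70, 6.58, 6.61 and 9.73 on the 4 arrays), but not for Tubb1, a platelet tubulin gene (5.82, 6.24, 6.07 and 10.32). The part of such cells in the Kit values was not tested.

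For the ligands, the reticular stroma list moved with Il7 and Kitl. It was at 13.47, 13.36, 13.38 and 13.48 on CD54+CD31-BP1+ arrays and 5.22, 6.38 and 6.08 on CD54-CD31+ arrays. The endothelium list was at 5.54 to 5.83 and 6.43 to 6.80. CD54+CD31-BP1+ replicate 4 was the highest of its population on the platelet list. CD54-CD31+ replicate 2 was the highest of its population for Il7r 1448575_at and on the B-cell precursor list. It was also highest on the stem and progenitor, mast cell and basophil, and neutrophil precursor lists. Other arrays stood apart too, such as CD54-CD31+ replicate 3, low on the neutrophil precursor list (8.85 against 11.62 and 12.32). Leaving out replicates 4 and 2 of these populations together, a choice made after seeing the data, left all 6 ligand calls in place. The Il7r difference was then -1.03 (limma adjusted p = 0.0907).

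**Figure D3:**
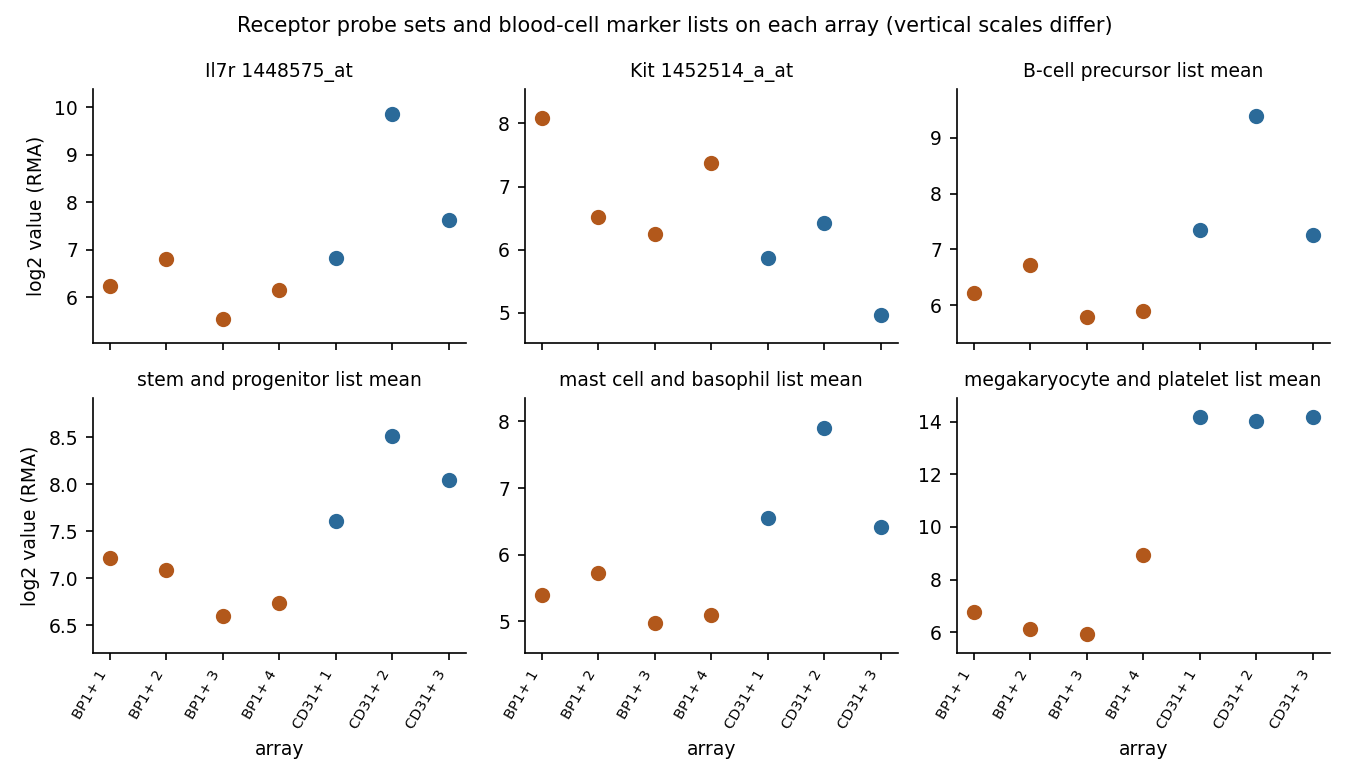
Each panel gives, by array on the horizontal axis, the log2 value of a receptor probe set or the mean log2 value of a marker list (orange, 4 CD54+CD31-BP1+ arrays; blue, 3 CD54-CD31+ arrays; vertical scales differ and do not start at 0). Il7r 1448575_at and the B-cell precursor list both peak on CD54-CD31+ replicate 2, at 9.87 and 9.39. The stem and progenitor list and the mast cell and basophil list also peak there, at 8.52 and 7.90. Kit 1452514_a_at is highest on CD54+CD31-BP1+ replicates 1 and 4.

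Ligand and receptor were also set against each other within each array. Levels of different probe sets are not comparable, so only the change of this difference between populations is read, and it was not tested. With the brighter probe set of each gene, Il7 minus Il7r was 4.67, 4.29, 5.30 and 5.36 on CD54+CD31-BP1+ arrays and -1.13, -3.59 and -2.15 on CD54-CD31+ arrays. It changed by 7.19 log2 units, mostly through the Il7 difference of 5.27, with an Il7r difference of -1.93 in the opposite direction. Kitl minus Kit was 4.96, 5.85, 6.34 and 5.12 against 1.26, 0.75 and 2.66, a change of 4.01. Tslp minus Il7r was -1.69, -0.96, 0.39 and -0.92 against -2.40, -5.67 and -3.20, a change of 2.96 in which Tslp was mostly below the floor. In all 3 pairs CD54+CD31-BP1+ lay above without overlap. This also held for 20.7% of all non-control probe sets taken singly, and separation in either direction for 60.7%.

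**Figure D4:**
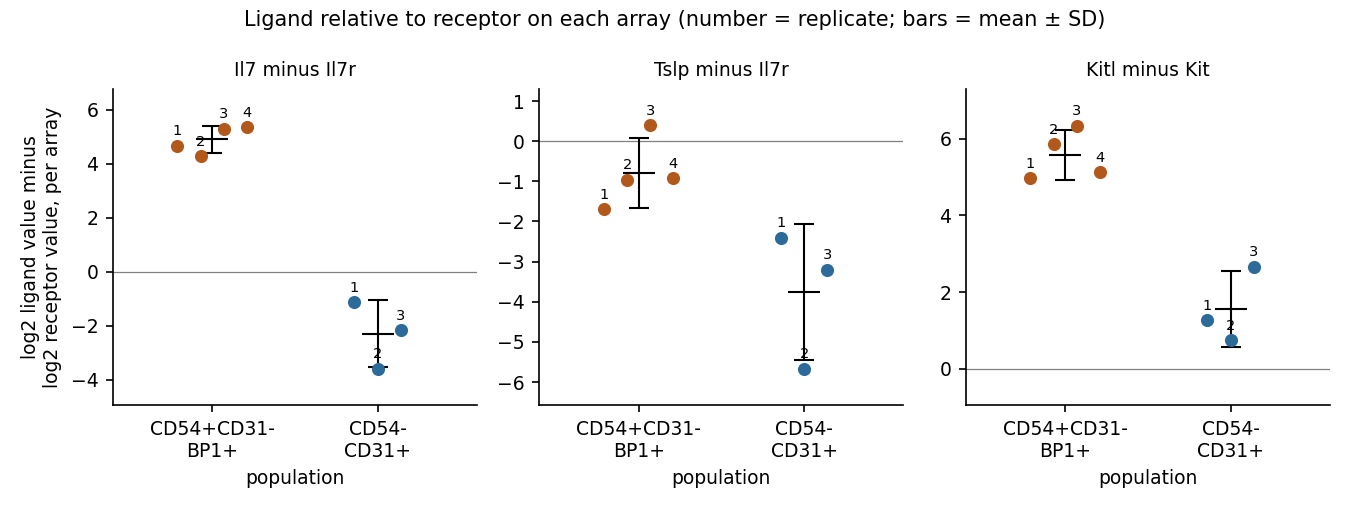
The vertical axes give the log2 value of the ligand minus that of its receptor on the same array, for the probe set of each gene with the highest mean, with 1 point per array, its replicate number and bars for mean ± SD (orange, 4 CD54+CD31-BP1+ arrays; blue, 3 CD54-CD31+ arrays). The CD54+CD31-BP1+ points lie above the CD54-CD31+ points in each panel, with Il7 minus Il7r at 4.90 ± 0.52 and -2.29 ± 1.23.

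The rest of the pathways was read from 6 lists of 66 genes, of which 57 were matched and tested, each through its brightest probe set. Toward CD54+CD31-BP1+ 20 were called, toward CD54-CD31+ 18, and 19 in neither direction. That is 66.7% called, against 46.5% of all 13995 genes tested (30.5% toward CD54+CD31-BP1+, 16.0% toward CD54-CD31+), and their median difference was 0.18 against 0.19 over all genes. The split moved with scaling, to 10 and 20 after a second quantile normalization and 11 and 22 after cyclic loess. The other listed genes were not analysed here.

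Crlf2, the TSLP receptor's own chain, was bright in both populations, at 11.53, 12.12, 11.86 and 11.53 against 11.25, 11.32 and 11.74. The groups overlapped, and the difference of 0.32 had a 95% interval of -0.20 to 0.84 (limma adjusted p = 0.243). No other partner chain was tested.

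Among 7 Janus kinases and STATs, which carry the signal of IL-7 and TSLP, 2 were called each way. Stat5a, the main STAT of IL-7 signalling with Stat5b, read 10.75, 11.21, 10.70 and 11.63 against 7.33, 7.72 and 7.51, an 11.7-fold difference (limma adjusted p = 2.14e-05). Its second probe set was called in the same direction, by 1.61 log2 units with the CD54-CD31+ mean of 5.09 below the floor. Jak2, which serves the TSLP receptor, read 9.70, 10.01, 9.75 and 9.89 against 12.04, 12.02 and 11.87, 4.41-fold higher on CD54-CD31+ arrays (limma adjusted p = 2.84e-05). Jak1, the kinase bound to the Il7r chain, was 2.31-fold higher there, though by only 0.97 log2 units without CD54-CD31+ replicate 1, below the threshold. Stat3 was 2.40-fold higher on CD54+CD31-BP1+ arrays, a call lost with differences of 0.87 and 0.82 after second quantile normalization and cyclic loess. Only 1 of the 3 other tested Stat3 probe sets was called that way, and averaged over its probe sets Stat3 was not called (0.91).

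Proximal KIT signalling had 19 genes tested, 6 called toward CD54+CD31-BP1+ and 7 toward CD54-CD31+. The Src-family kinase gene Fyn was 11.1-fold higher on CD54-CD31+ arrays, the phosphatase gene Ptpn11 (SHP-2) 8.14-fold, Plcg2 6.91-fold and the exchange factor gene Vav1 5.08-fold. In the other direction, Plcg1 was 5.08-fold and Pik3r1, the regulatory subunit of PI3-kinase, 4.78-fold higher on CD54+CD31-BP1+ arrays. The paralogs Plcg1 and Plcg2 thus differed in opposite directions, although Plcg1 averaged over its probe sets differed by only 0.21. The largest limma adjusted p of these 6 genes was 9.45e-05.

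Negative regulators split evenly, with 5 of 13 called in each direction. Socs2, a STAT5 target that dampens cytokine receptors, read 12.02, 11.55, 11.65 and 11.39 against 6.89, 8.22 and 8.07, 15.2-fold higher on CD54+CD31-BP1+ arrays (limma adjusted p = 4.84e-05). Socs3 was 11.3-fold, Cish 4.03-fold and Cblb 3.90-fold higher on the same arrays, Socs3 by 6.57-fold without CD54-CD31+ replicate 1. Inpp5d, which encodes the lipid phosphatase SHIP1 of blood cells, read 6.32, 6.60, 5.83 and 6.21 against 11.55, 11.49 and 11.34, 37.2-fold higher on CD54-CD31+ arrays (limma adjusted p = 1.03e-06). Sh2b3, which encodes the adaptor LNK, was 8.85-fold higher there. These are the arrays on which CD45 and platelet genes were also higher.

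Of 13 survival and target genes, 5 were called toward CD54+CD31-BP1+ and 3 toward CD54-CD31+. Bcl2l11, which encodes the death-promoting BIM, was 6.29-fold higher on CD54+CD31-BP1+ arrays, but only 1 of its 3 other tested probe sets was called that way. Foxo1 (3.44-fold), Mitf (2.60-fold) and Myc (2.12-fold) were called in the same direction. Only 1 of the 3 other tested Foxo1 probe sets was called that way, and their lowest difference was -0.68. Averaged over its probe sets, Mitf differed by 0.88 and was not called. Foxo1 lost its call after second quantile normalization (difference 1.32, limma adjusted p = 0.0551) and was 2.24-fold higher without CD54-CD31+ replicate 1. Mitf lost it without CD54-CD31+ replicate 1 (1.42, adjusted p = 0.0588) or 2 (1.02, adjusted p = 0.074), with the hybridisation-control block (1.29, adjusted p = 0.165) and on the arrays of lower control level (adjusted p = 0.0951). Myc lost it without CD54+CD31-BP1+ replicate 2 (0.96) or CD54-CD31+ replicate 3 (0.84), after both scalings (0.63 and 0.56) and with that block (limma adjusted p = 0.0778). Bcl2l1, which encodes the survival protein BCL-XL, was 9.2-fold and Foxo3 5.4-fold higher on CD54-CD31+ arrays (largest limma adjusted p 0.00012), and both kept the call under all 17 alternatives in which they were refitted.

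The membrane form of SCF can be shed by proteases. Of 4 genes linked to shedding, Rhbdf1 was 6.68-fold higher on CD54+CD31-BP1+ arrays (limma adjusted p = 0.00227) and Adam17, a sheddase, 2.41-fold (adjusted p = 0.00349). The Adam17 call was lost after second quantile normalization and cyclic loess, with differences of 0.85 and 0.81. Of its 2 other tested probe sets 0 were called, and averaged over its probe sets Adam17 was not called (0.85). Rhbdf2, the paralog of Rhbdf1, was 4.57-fold higher on CD54-CD31+ arrays (limma adjusted p = 6.85e-05), and Mmp9 was called in neither direction.

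**Figure D5:**
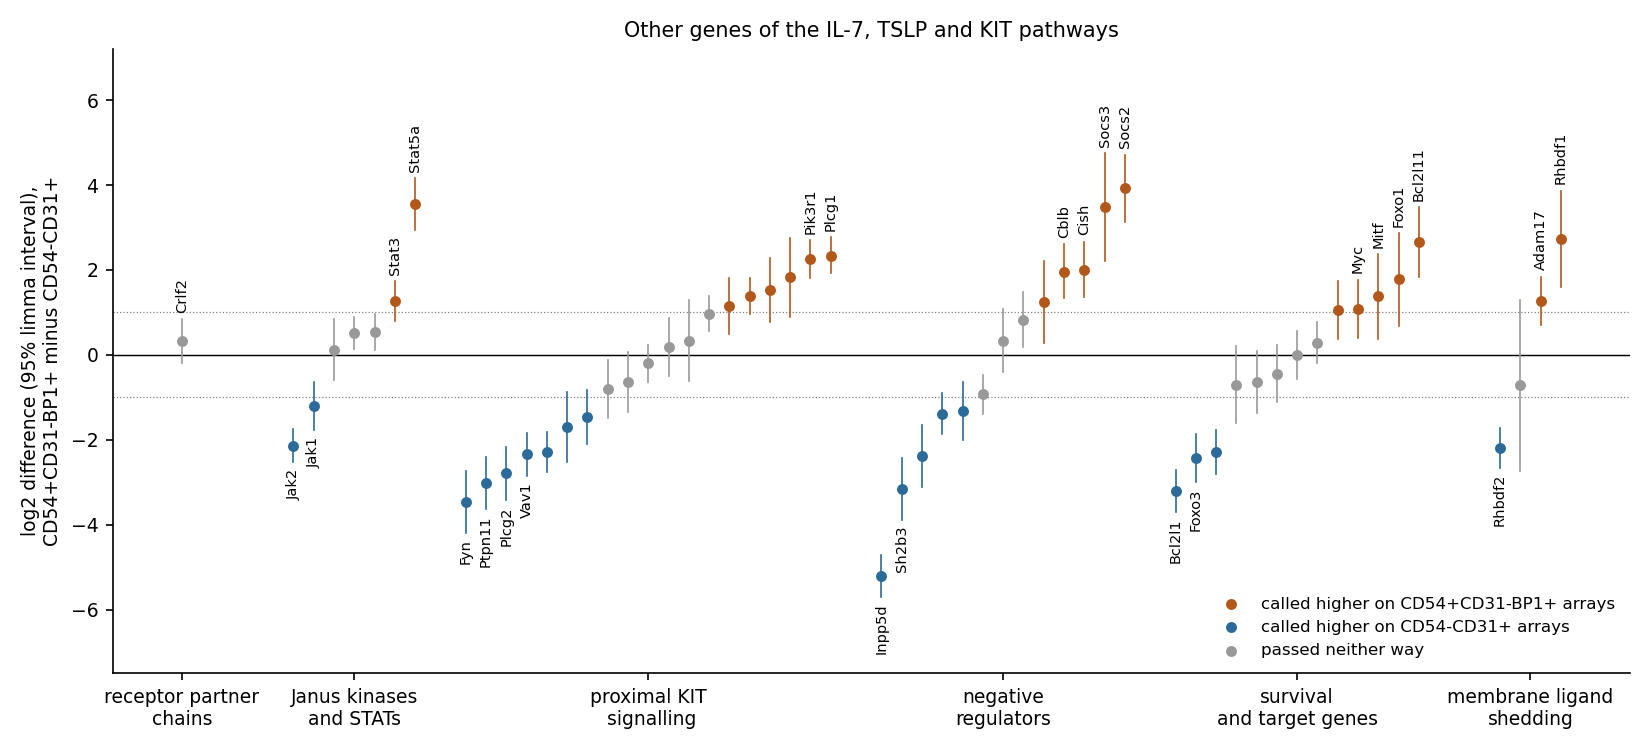
Each point is the log2 difference (vertical axis, CD54+CD31-BP1+ minus CD54-CD31+) of a pathway gene, with its 95% limma interval, grouped by list along the horizontal axis; orange and blue were called, grey was not, and dotted lines mark a difference of 1 either way. Points above and below the lines appear in every list with a call, from Inpp5d at -5.22 to Socs2 at 3.93.

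The genes whose values most resembled each member's were found by the root mean square difference of log2 values over the 7 arrays, each probe set centred on its own mean, among 13103 genes. For Il7 1436861_at these were Serpinh1, a collagen chaperone gene (0.122), the collagen gene Col12a1 (0.209) and Bmper (0.210). For Kitl 1426152_a_at they were Eya4 (0.183), the basement membrane gene Nid2 (0.227) and Agt, which encodes angiotensinogen (0.228). Serpinh1 read 13.79, 13.81, 13.64 and 14.11 against 8.57, 8.84 and 8.22. Replicate 4 was highest in the first population and replicate 2 in the second, as for that Il7 probe set. This likeness follows from the choice of the genes on these same arrays.

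For Il7r 1448575_at the nearest were Mzb1, an endoplasmic reticulum protein gene of B and plasma cells (0.308), Tnfrsf13c, which encodes the BAFF receptor of B cells (0.312), and Adcy7 (0.341). Mzb1 read 5.68, 6.55, 5.73 and 5.94 against 7.25, 9.96 and 7.32, and Tnfrsf13c 5.76, 5.89, 5.38 and 5.59 against 6.98, 9.63 and 7.17. Both were highest on CD54-CD31+ replicate 2, as was Il7r, which follows from their choice by likeness on these same arrays. For Kit 1452514_a_at the nearest were Snrnp70 (0.200), Mdm4 (0.363) and Slc43a3 (0.372). For Tslp they were Sfmbt2 (0.105), Sftpa1 (0.144) and Kcnq3 (0.180).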

How the data were processed

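Total RNA was amplified (Ambion MessageAmp II), per the labels' protocols, and the deposited log2 values come from Affymetrix Expression Console 1.1 with RMA, per the submitters' processing notes. RMA includes a quantile normalisation of the arrays. The deposited medians still ranged from 6.00 to 6.19, so a second such step was tried. Amplification favours transcript 3′ ends. Probe sets were named through GEO's platform annotation: 34945 carried 1 symbol, 932 several and 9160 none, with 64 controls left out. In R 4.3.3, limma 3.58.1 (lmFit, eBayes, two-sided) was fitted to 29439 probe sets with Benjamini-Hochberg adjustment over all of them, after a test on simulated data. Precision is limited by the number of arrays.

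Members, lists and markers were chosen with earlier results of these data known. Named were all member probe sets, from each pathway list up to 4 genes in its main direction and 2 in the other by size of difference, gate and marker genes, and the 3 nearest genes per member. Alternatives covered scaling, filter, eBayes options, call rule, probe set choice, blocks and left-out arrays.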

Additional observations from a re-analysis of the deposited data

How the results depend on the processing

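Of 292 recomputed values, 266 kept their direction and side of the threshold or, for counts and untested values, moved within 1.5 times or by less than the spread between replicates. Il7 and Kitl kept their calls under all alternatives, with differences of 3.53 to 5.5 for Il7 and 4.13 to 9.43 for Kitl. The causes of the changes below were not tested.

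Tslp passed with no filter (1.03, limma adjusted p = 0.0314). Il7r 1448575_at ranged from -2.57 to -1.04 when 1 array was left out. It lost its call with the hybridisation-control block (-0.65) and on the arrays of lower level (-0.65), which both rest on CD54-CD31+ replicate 1 alone, and without CD54+CD31-BP1+ replicate 4 and CD54-CD31+ replicate 2 together (-1.03, an alternative chosen after seeing the data). The member count called by limma toward CD54-CD31+ was 0 in each of these, and 0 to 1 with 1 array left out; the unadjusted p for Il7r on all arrays was 0.0211. Kit 1452514_a_at passed after cyclic loess (1.45) and ranged from 0.91 to 1.64 with 1 array left out. With probe sets averaged it was 0.43.

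Pathway genes called toward CD54+CD31-BP1+ numbered 10 after second quantile normalization, 11 after cyclic loess and 13 with probe sets averaged, against 20. By adjusted p alone, 8580 probe sets were called toward CD54-CD31+, against 4293. These scalings moved the median difference from 0.07 to -0.13 and 0.01, and the share of calls toward CD54+CD31-BP1+ from 64.1% to 51.9% and 59.5%. Il7 minus Il7r changed by 6.04 on arrays of lower hybridisation-control level and 5.72 with probe sets averaged, Tslp minus Il7r by 1.61 on the former, and Kitl minus Kit by 5.61 with the latter.

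The labels do not say whether replicate numbers pair the samples. Deviations of same-numbered arrays correlated at -0.119, 0.00167 and 0.117, and 1 of 3 numbers correlated best with its own. These values show no pairing but cannot exclude it, since other differences between arrays enter them too. With the number as a replicate block, no call of a member changed: Il7 gave 3.75 and 5.13, Kitl 5.0, 9.05, 5.36 and 5.01, Il7r -1.92 and Kit 1.20. Of the named pathway genes, Foxo1 (limma adjusted p = 0.0524) and Mitf (0.0669) lost theirs.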
